A study of Mus musculus with 8 samples.

Results

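The genes described here are 40 that act in G2 and mitosis, the part of the cell cycle in which a cell that has copied its DNA sorts the copies into daughter cells. They were listed by symbol for their function, with earlier results of these data known. Each was matched to its Ensembl identifier in the deposited table of 52636 genes. All 40 were found and all 40 passed the filter on low counts. The study measured RNA from mouse immune cells of spleens and lymph nodes, taken from mice aged 35 to 55 days before disease signs. Cells were cultured for 4 days with anti-CD3 (1 μg/ml) and with IL-23 (20 ng/ml), human TGF-β (4 ng/ml), IL-6 (20 ng/ml) and IL-12 (3 ng/ml), a mixed TH1/TH17 stimulation that every group received. TCR1640 animals are SJL/J mice with a transgene for a myelin-reactive T cell receptor, and SJL/J animals without the transgene are labelled WT. The 4 groups are TCR1640 females, TCR1640 males, SJL/J females and SJL/J males, with 2 columns each. No label says whether the columns of a group came from separate mice or whether mice were pooled.

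Columns held 3765291 to 5116467 counts. Counts of the paired columns of a group were close to sampling noise (chi-square per degree of freedom 1.05 to 1.08, against 3.12 to 17.05 between groups). They were therefore summed and counted as 1 sample per group, with 7678860 to 10005975 counts. A transgenic receptor gives most T cells the same receptor segments, and here the segments went against the strain labels. Traj43, a single alpha joining segment, took 75.6% and 79.2% of joining segment counts in the female and male libraries with the SJL/J label. In those labelled TCR1640 it took 5.04% and 2.91%. Strain names below are thus labels of libraries, and a direction between them is a direction between labels. In bulk RNA, fewer dividing cells and less RNA of a gene per cell cannot be told apart.

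Entry into mitosis is driven by cyclin-dependent kinase 1 bound to cyclins A and B, and is helped by the Polo-like and Aurora kinases. Kinetochores then attach chromosomes to spindle microtubules, a checkpoint holds back the anaphase-promoting complex (APC/C) until all are attached, and motors and scaffold proteins finish division. Transcripts of these proteins are low in resting lymphocytes, accumulate from late S phase to mitosis and are widely read as a sign of dividing cells. T cells stimulated through CD3 divide repeatedly in culture.

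Most of the genes were lower in the libraries labelled TCR1640. Values are CPM, counts relative to the library's total, on library sizes scaled by TMM, a method that assumes most genes do not differ. Summed over the 40 genes, the level was 1919 and 1891 CPM in the columns of TCR1640 females and 1839 and 1913 CPM in those of TCR1640 males. It was 2578 and 2599 CPM in SJL/J females and 2702 and 2756 CPM in SJL/J males. A few genes made up much of the sum, and Mki67 alone held 375 CPM in TCR1640 females and 611.5 CPM in SJL/J females. Without Mki67 and the genes that share exons with one on the other strand, TCR1640 columns stood at 886.6 and 877 (females), then 868.5 and 916.4 CPM (males). The SJL/J columns then stood at 1249 and 1254 (females), then 1332 and 1391 CPM (males). The strain labels did not overlap. Columns of females and males overlapped under the TCR1640 label but not under the SJL/J label, where the males lay higher. An additive edgeR model of the 4 summed samples, with terms for strain label and sex, called 30 of the 40 genes lower under the TCR1640 label and none higher. Over all 17261 features tested, 13.1% were called lower and 13.4% higher. The estimate was below 0 for 39 of the 40 genes, against 49.1% of all features. The median log2 difference of the 40 genes was -0.64, against 0.01 over all features tested. All 4 TCR1640 columns lay below all 4 SJL/J columns for 31 of the 40 genes, and above them for none, against 16.2% and 16.7% of all features tested.

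The direction was seen in each sex, where 1 sample stood against 1 and no test is possible. In females 36 of 40 log2 ratios were below 0, against 48.6% of all features, with a median of -0.55. Of the 40, 17 were lower by at least 1.5-fold with an exact 95% counting interval that excluded equality, a rule that 10.7% of all features met, and none were higher (9.99% of all features). In males 39 of 40 ratios were below 0, against 50.1% of all features, with a median of -0.61. There 22 met the rule as lower, against 12.7% of all features, and none as higher, against 11.9%. At a 2-fold limit only 1 gene in females and 4 in males were counted, so most differences were of less than 2-fold. The share of all features at that limit was not taken, so these counts describe size only. Intervals cover counting error only, and the males and females share no library.

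**Figure D1:**
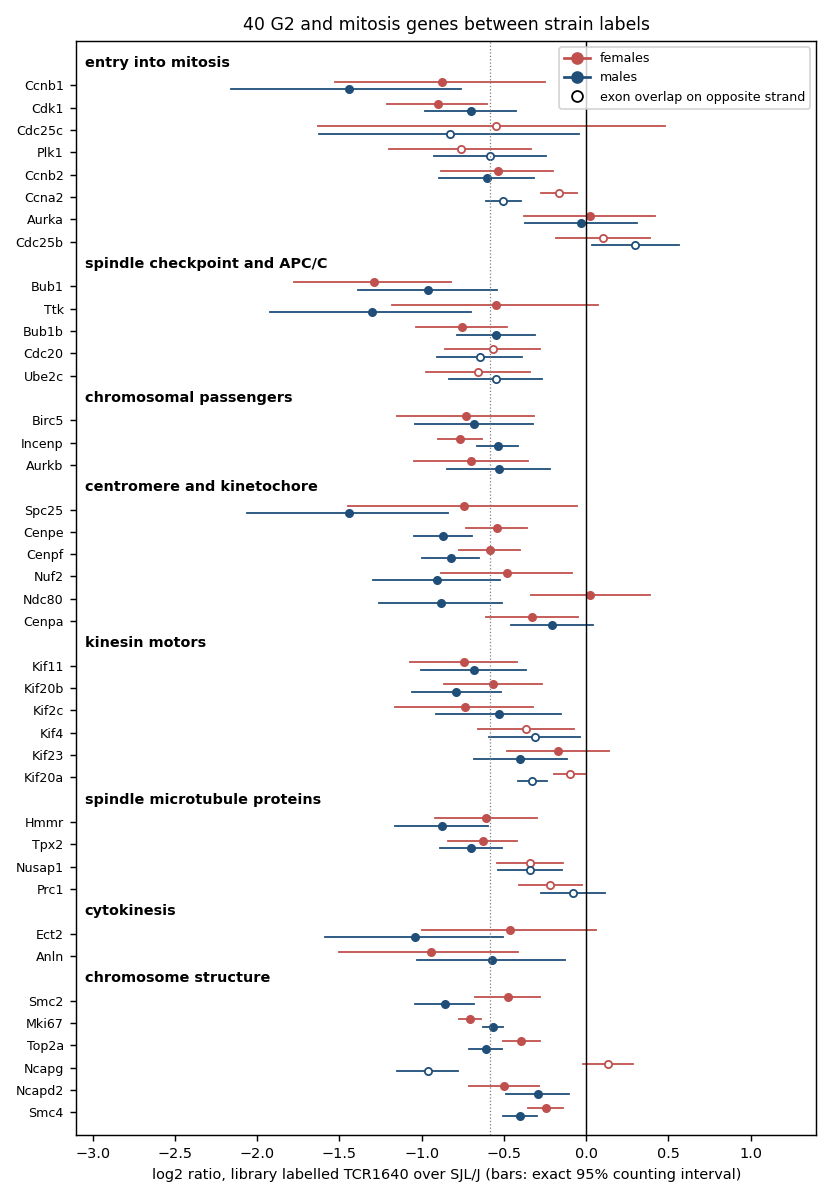
Log2 ratio of TCR1640 over SJL/J, by label, for each of the 40 genes, in females (red) and males (blue), grouped by role, with exact 95% counting intervals; open points mark genes with exon overlap on the opposite strand and the dotted line marks 1.5-fold lower. Of the 40 points, 36 in females and 39 in males lie below 0.

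The adjusted p-values rest on 1 residual degree of freedom and on a spread shared across genes, not on spread between mice. DESeq2 on the same 4 samples called 9 of the 40 lower and none higher, where it called 4.32% of all features lower and 3.85% higher. Those 9 were Cdk1, Bub1, Incenp, Cenpe, Cenpf, Tpx2, Top2a, Mki67 and Smc2. With the 8 columns fitted as separate samples, which counts repeat columns as replicates, 36 of the 40 were lower, against 24.5% of features, and none higher, against 25%. An exact permutation test of 2 samples against 2 cannot give a two-sided p below 0.333.

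The promoters of these genes carried a shared set of short sequences that the choice of genes did not use. The best-known pair is the CCAAT box, bound by the factor NF-Y, and the cell cycle genes homology region (CHR), whose core letters TTTGAA or TTTAAA are read by the MuvB complexes that hold such genes silent in resting cells. RefSeq sequences on GRCm38.p6, from 250 bases before to 50 after a start, were found for 33 of the 40 genes. The most upstream listed start was used and both strands were searched. CCAAT stood in 26 of 33 (78.8%), against 38% of the 27025 genes with such a sequence, and stood there at least 2 times in 17 (51.5%, against 12.1%). TTTGAA stood in 26 of 33 (78.8%, against 18.2%) and TTTAAA in 9 (27.3%, against 13.1%). The E2F-like letters TTTCCCGC stood in 1 of 33 (3.03%), against 1.11% of all. CCAAT and TTTGAA do not overlap as letters, and a match is a description of the sequence and not a bound site.

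The 120 bases just before the start are shown for genes that differ in which of these letters they hold, from 5′ to 3′ on the gene's strand, with the CCAAT box (ATTGG on the other strand) and both CHR cores (TTCAAA for the first on the other strand) in capitals. The first 4 hold both CCAAT and TTTGAA, and the next pair hold CCAAT and TTTAAA. Aurka and Bub1 hold only CCAAT in this stretch and stand near opposite ends of the strain differences, and Nuf2 holds none of these letters. The genes shown do not stand for the usual layout. In many others, among them Ccnb2, Hmmr, Spc25 and Ttk, TTTGAA stood in the wider window but not in this stretch.
Cdk1 (chr10:69352913-69353032, minus strand): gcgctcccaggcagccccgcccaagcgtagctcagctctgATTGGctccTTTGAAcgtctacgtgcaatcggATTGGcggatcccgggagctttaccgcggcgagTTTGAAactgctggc
Top2a (chr11:99024190-99024309, minus strand): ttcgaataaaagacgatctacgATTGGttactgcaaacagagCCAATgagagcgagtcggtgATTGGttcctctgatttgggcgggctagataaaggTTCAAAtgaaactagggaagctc
Ube2c (chr2:164769809-164769928, plus strand): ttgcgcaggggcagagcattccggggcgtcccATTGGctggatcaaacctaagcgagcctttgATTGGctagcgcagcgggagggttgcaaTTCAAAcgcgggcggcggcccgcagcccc
Cdc20 (chr4:118437344-118437463, minus strand): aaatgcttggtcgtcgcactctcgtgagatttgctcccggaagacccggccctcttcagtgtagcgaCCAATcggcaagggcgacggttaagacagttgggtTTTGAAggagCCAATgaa
Ccnb1 (chr13:100786487-100786606, minus strand): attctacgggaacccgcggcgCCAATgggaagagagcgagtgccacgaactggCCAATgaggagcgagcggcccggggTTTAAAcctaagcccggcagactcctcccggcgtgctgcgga
Plk1 (chr7:122159315-122159434, plus strand): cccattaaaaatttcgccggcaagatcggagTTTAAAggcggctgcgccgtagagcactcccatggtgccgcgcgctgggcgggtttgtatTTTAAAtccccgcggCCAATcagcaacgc
Aurka (chr2:172370571-172370690, minus strand): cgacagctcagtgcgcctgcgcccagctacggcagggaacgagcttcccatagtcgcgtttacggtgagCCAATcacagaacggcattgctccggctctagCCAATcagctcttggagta
Bub1 (chr2:127831860-127831979, minus strand): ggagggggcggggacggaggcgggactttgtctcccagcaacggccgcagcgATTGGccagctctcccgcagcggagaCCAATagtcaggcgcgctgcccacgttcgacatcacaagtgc
Nuf2 (chr1:169531465-169531584, minus strand): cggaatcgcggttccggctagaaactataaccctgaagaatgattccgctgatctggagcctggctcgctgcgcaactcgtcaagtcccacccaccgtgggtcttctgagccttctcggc

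The wider window of Aurka also held TTTGAA and TTTAAA, and that of Bub1 held neither. Strain differences were close in genes with and without CCAAT, and in genes with and without TTTGAA. The median log2 difference was -0.63 in the 26 genes with TTTGAA and -0.70 in the 7 without it, and 20 of the 26 and 5 of the 7 fell. For CCAAT the medians were -0.64 with it and -0.68 without. With either CHR core, TTTGAA or TTTAAA, the median was -0.65 and 23 of 29 fell. In the 4 genes without either core it was -0.52 and 2 fell. The letters also stood in many of a further list of 69 G2 and mitosis genes, where 29 of 54 matched promoters (53.7%) held TTTGAA. Among genes of DNA replication it stood in 5 of 34 (14.7%), a share near that of all promoters. CCAAT was as frequent in both lists, in 35 of 54 (64.8%) and 22 of 34 (64.7%), against 38% of all promoters.

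Of the 8 genes that drive entry into mitosis, 5 fell and 3 did not pass. For each gene below, columns are given with females first. Cdk1, the kinase that starts mitosis (ENSMUSG00000019942, chromosome 10, 69335146 to 69352938 on the minus strand of GRCm38), stood at 15.6 and 19.4, then 19.8 and 19.1 CPM under the TCR1640 label, and at 31.4 and 34.1, then 30.2 and 33 CPM under the SJL/J label. It fell by 0.80 (SE 0.16, edgeR adjusted p = 9.93e-06) on the log2 scale. Its partner Ccnb2, a B-type cyclin, stood at 14.2 and 16.6, then 19.4 and 18.5 CPM under the TCR1640 label, and at 21.1 and 23.7, then 28.3 and 29.3 CPM under the SJL/J label, and fell by 0.57 (SE 0.17, edgeR adjusted p = 0.00394). All TCR1640 columns of both genes lay below all SJL/J columns. The cyclin Ccnb1 had only 12 to 33 counts per column and fell by 1.15 (SE 0.30, edgeR adjusted p = 0.000912), the lowest estimate of the 40. Aurka, a kinase of the centrosome and spindle poles, was the exception without overlap on the other strand. It stood at 12.4 and 14.4, then 16.9 and 15.8 CPM under the TCR1640 label, and at 11.8 and 14.6, then 15.9 and 17.5 CPM under the SJL/J label, so its columns overlapped, and its difference was -0.01 (SE 0.19, edgeR adjusted p = 0.983). The remaining members of the group, the cyclin Ccna2, the kinase Plk1 and the phosphatases Cdc25b and Cdc25c, overlap genes on the other strand and are given again with them below. Ccna2 fell by 0.33 (adjusted p = 0.0285) and Plk1 by 0.66 (adjusted p = 0.00313). Cdc25b stood at 0.20 (SE 0.16, edgeR adjusted p = 0.377), the 1 estimate above 0, and Cdc25c, with 96 counts in all, at -0.71 (SE 0.40, edgeR adjusted p = 0.187).

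All 5 genes of the spindle checkpoint and of APC/C activation fell. Bub1, a checkpoint kinase (ENSMUSG00000027379, chromosome 2, 127801122 to 127831865 on the minus strand of GRCm38), stood at 6.06 and 7.57, then 8.45 and 7.68 CPM under the TCR1640 label, and at 16.4 and 16.9, then 13.5 and 17.8 CPM under the SJL/J label. It fell by 1.11 (SE 0.21, edgeR adjusted p = 1.78e-06), and no gene of the 40 with more counts had a lower estimate. Bub1b, which encodes the checkpoint protein BubR1, stood at 18.7 and 25, then 22.9 and 31.5 CPM under the TCR1640 label, and at 39 and 35, then 37.4 and 42.3 CPM under the SJL/J label, and fell by 0.65 (SE 0.15, edgeR adjusted p = 0.000226). Neither gene's TCR1640 columns reached the SJL/J columns. Ttk, the kinase MPS1 that sets off the checkpoint, had 14 to 38 counts per column and fell by 0.93 (SE 0.28, edgeR adjusted p = 0.00561). Cdc20, the activator of the APC/C and the target of the checkpoint, and Ube2c, the conjugating enzyme that works with the APC/C, fell by 0.61 (adjusted p = 0.000896) and by 0.60 (adjusted p = 0.00172). Both overlap an exon of a gene on the other strand.

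The chromosomal passengers, which correct attachments at the centromere and later guide cytokinesis, fell together, 3 of 3. Incenp, the scaffold of the complex (ENSMUSG00000024660, chromosome 19, 9872296 to 9899551 on the minus strand of GRCm38), stood at 92.5 and 87, then 91.3 and 113 CPM under the TCR1640 label, and at 149 and 156, then 154 and 143 CPM under the SJL/J label. It fell by 0.65 (SE 0.13, edgeR adjusted p = 4.51e-06). Aurkb, its kinase, stood at 15.8 and 13.1, then 16.3 and 16.1 CPM under the TCR1640 label, and at 27.5 and 19.5, then 24.7 and 22.3 CPM under the SJL/J label. Birc5, the subunit also called survivin, stood at 10.5 and 9.33, then 13.6 and 10.6 CPM under the TCR1640 label, and at 17.7 and 15.3, then 20 and 18.8 CPM under the SJL/J label. Every TCR1640 column was below every SJL/J column for these 3 genes. Aurkb fell by 0.61 (adjusted p = 0.00268) and Birc5 by 0.70 (adjusted p = 0.00172). The Aurora kinases thus differed in their estimates, -0.61 for Aurkb and -0.01 for Aurka. The log2 ratio in females was -0.70 (counting interval -1.05 to -0.36) for Aurkb and 0.02 (counting interval -0.38 to 0.42) for Aurka. In males it was -0.53 (counting interval -0.85 to -0.22) and -0.03 (counting interval -0.37 to 0.31). The difference between the 2 kinases was not tested.

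At the centromere and kinetochore 4 of 6 genes fell. Cenpe, a kinesin that carries chromosomes to the spindle equator, stood at 50.1 and 53.7, then 47 and 43.1 CPM under the TCR1640 label, and at 82.3 and 69.5, then 84.5 and 80 CPM under the SJL/J label. Cenpf, a large protein of the outer kinetochore (ENSMUSG00000026605, chromosome 1, 189640606 to 189688086 on the minus strand of GRCm38), stood at 51.1 and 49.4, then 43.9 and 48.5 CPM under the TCR1640 label, and at 69.5 and 81.1, then 76.2 and 87.3 CPM under the SJL/J label. The columns of both genes parted without overlap, and they fell by 0.71 (adjusted p = 4.80e-06) and 0.71 (adjusted p = 5.19e-06). Cenpa, the histone H3 variant that marks the centromere, stood at 25.8 and 21.7, then 28 and 29.1 CPM under the TCR1640 label, and at 28.5 and 31, then 32.2 and 33.8 CPM under the SJL/J label. Its columns overlapped and its difference was -0.27 (SE 0.15, edgeR adjusted p = 0.211).

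The Ndc80 complex binds microtubules, and 3 of its 4 subunits are among the 40. Nuf2 stood at 12.4 and 10.8, then 11.5 and 7.88 CPM under the TCR1640 label, and at 16.4 and 16, then 19 and 17.3 CPM under the SJL/J label, and fell by 0.70 (SE 0.19, edgeR adjusted p = 0.00229). Spc25, with 13 to 41 counts per column, fell by 1.12 (SE 0.29, edgeR adjusted p = 0.000987). Ndc80 itself stood at 17.4 and 15.4, then 12.6 and 8.27 CPM under the TCR1640 label, and at 16 and 16.2, then 18.5 and 19.8 CPM under the SJL/J label. The female columns of the labels overlapped and the TCR1640 male columns lay below the other 6. Its difference was -0.42 (SE 0.19, edgeR adjusted p = 0.0772). Its log2 ratio was 0.02 (counting interval -0.34 to 0.39) in females and -0.88 (counting interval -1.26 to -0.51) in males.

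Among the kinesin motors 3 of 6 fell. Kif11, the motor that pushes spindle poles apart, stood at 15 and 16.6, then 13.8 and 16 CPM under the TCR1640 label, and at 25.3 and 27.7, then 25.5 and 22.5 CPM under the SJL/J label, and fell by 0.71 (SE 0.17, edgeR adjusted p = 0.000274). Kif20b, a motor of late mitosis, stood at 21.3 and 18.2, then 19.8 and 19.9 CPM under the TCR1640 label, and at 30 and 28.4, then 33.3 and 35.3 CPM under the SJL/J label. Kif2c, which takes microtubules apart at the centromere, stood at 8.96 and 10.6, then 9.89 and 12.6 CPM under the TCR1640 label, and at 16.9 and 15.7, then 14 and 18.5 CPM under the SJL/J label. Columns of these 3 motors did not overlap between labels, and Kif20b and Kif2c fell by 0.68 (adjusted p = 0.000207) and 0.63 (adjusted p = 0.0074). Kif23, the motor of the centralspindlin complex, stood at 19.8 and 21.2, then 20.2 and 21.3 CPM under the TCR1640 label, and at 22.8 and 23.3, then 27 and 27.8 CPM under the SJL/J label. Its columns also parted, though its difference of -0.29 (SE 0.16, edgeR adjusted p = 0.194) did not pass. Kif20a and Kif4, which act on the midzone of the spindle in anaphase, did not pass either, at -0.21 (SE 0.12, edgeR adjusted p = 0.196) and -0.34 (SE 0.16, edgeR adjusted p = 0.107), and overlap genes on the other strand.

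**Figure D2:**
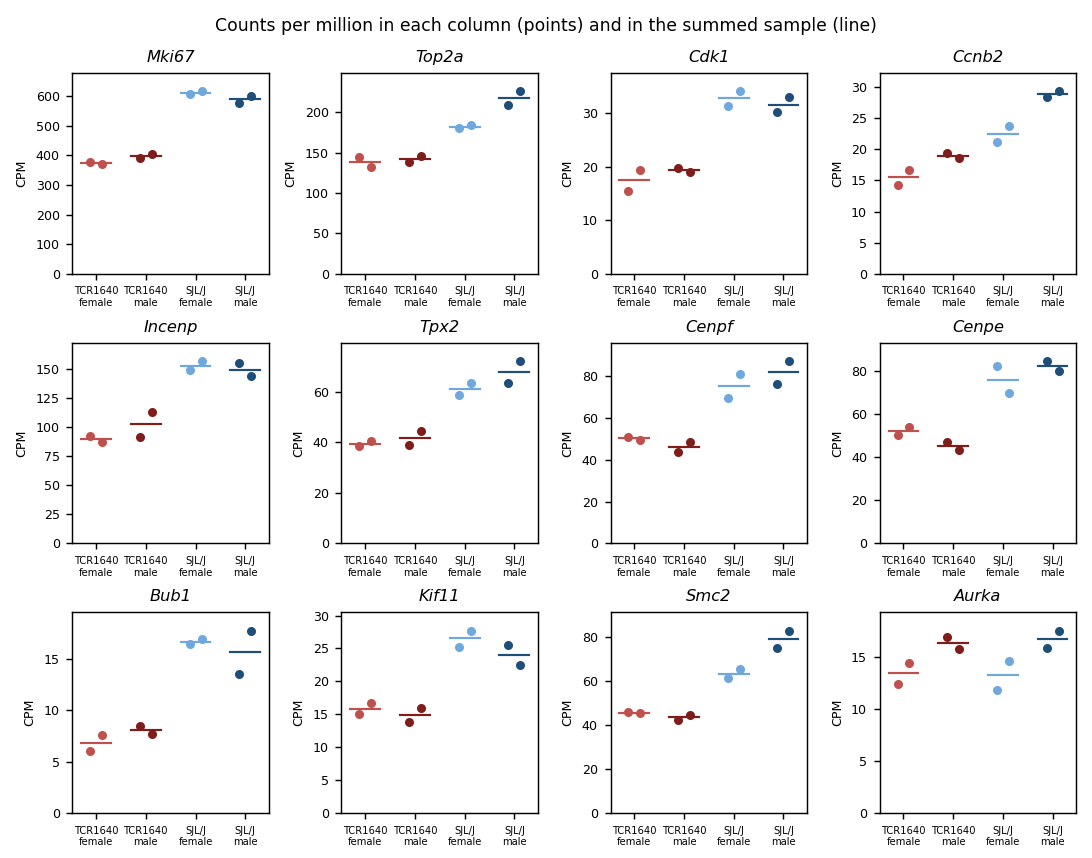
CPM of 12 of the genes in each of the 8 columns (points) and in the summed sample of each group (lines), with an axis from 0 in each panel. In every panel but that of Aurka the 4 columns labelled TCR1640 lie below the 4 labelled SJL/J.

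Of the 4 spindle microtubule proteins, Tpx2 and Hmmr fell and Nusap1 and Prc1 did not pass. Tpx2, which activates Aurora A and nucleates microtubules (ENSMUSG00000027469, chromosome 2, 152847964 to 152895321 on the plus strand of GRCm38), stood at 38.5 and 40.6, then 39.2 and 44.5 CPM under the TCR1640 label, and at 58.7 and 63.7, then 63.7 and 72.3 CPM under the SJL/J label, and fell by 0.67 (SE 0.14, edgeR adjusted p = 3.06e-05). Hmmr, a spindle protein also known as RHAMM, stood at 18.7 and 17.9, then 17.1 and 18.9 CPM under the TCR1640 label, and at 26.5 and 29.1, then 31.2 and 35 CPM under the SJL/J label, and fell by 0.75 (SE 0.16, edgeR adjusted p = 5.12e-05). The columns of both were apart. Nusap1, a microtubule bundling protein, stood at -0.34 (SE 0.14, edgeR adjusted p = 0.0583) and Prc1, which bundles the central spindle, at -0.15 (SE 0.14, edgeR adjusted p = 0.482). Both cytokinesis genes fell. Anln, the actin-binding protein anillin, stood at 6.59 and 4.79, then 7.21 and 8.67 CPM under the TCR1640 label, and at 11.8 and 10.1, then 11.7 and 12 CPM under the SJL/J label, and fell by 0.74 (SE 0.23, edgeR adjusted p = 0.00742). Ect2, which switches on RhoA at the division plane, had 24 to 43 counts per column and fell by 0.75 (SE 0.25, edgeR adjusted p = 0.014). The Ect2 call was lost without TCR1640 male column 2 (adjusted p = 0.0625), SJL/J female column 2 (adjusted p = 0.0579) or SJL/J male column 2 (adjusted p = 0.0511). Tpx2 is the partner of Aurora A, whose own gene Aurka stood at -0.01.

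All 6 genes of chromosome structure fell, among them the most highly counted of the 40. Mki67, the proliferation marker Ki-67 that coats mitotic chromosomes (ENSMUSG00000031004, chromosome 7, 135689784 to 135716361 on the minus strand of GRCm38), had 16582 counts in all. It stood at 377 and 372, then 392 and 404 CPM under the TCR1640 label, and at 606 and 616, then 579 and 600.1 CPM under the SJL/J label. The columns of a group lay far closer to each other than to those of the other label, and Mki67 fell by 0.64 (SE 0.11, edgeR adjusted p = 5.00e-07). Top2a, the topoisomerase that untangles sister DNA (ENSMUSG00000020914, chromosome 11, 98992943 to 99024189 on the minus strand of GRCm38), stood at 145 and 133, then 138 and 146 CPM under the TCR1640 label, and at 180.2 and 184, then 209 and 226 CPM under the SJL/J label, and fell by 0.50 (SE 0.12, edgeR adjusted p = 0.000394). Condensin, which compacts chromosomes, has a core of paired SMC proteins. Smc2 stood at 45.9 and 45.4, then 42.5 and 44.5 CPM under the TCR1640 label, and at 61.4 and 65.3, then 74.9 and 83 CPM under the SJL/J label. Smc4, its obligate partner, stood at 165 and 167, then 149.9 and 151 CPM under the TCR1640 label, and at 198 and 197, then 197 and 199.6 CPM under the SJL/J label. Columns of both genes parted between labels. Smc2 fell by 0.67 (adjusted p = 2.19e-05) and Smc4 by 0.32 (adjusted p = 0.0338). Of the condensin I subunits Ncapd2 fell by 0.40 (adjusted p = 0.0235) and Ncapg by 0.40 (adjusted p = 0.0172), the latter on counts that overlap another gene. Smc4 lost its call without TCR1640 male column 2 (adjusted p = 0.0581). Ncapd2 lost it without TCR1640 male column 1, SJL/J female column 1 or SJL/J male column 2 (adjusted p of 0.0531, 0.0628 and 0.052).

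The 40 estimates ran from -1.15 (Ccnb1) to 0.20 (Cdc25b), and 30 of them lay within 2 SE of the median of the 40. The 10 farther out were Bub1, below the median, and Ccna2, Cdc25b, Aurka, Cenpa, Kif20a, Kif23, Nusap1, Prc1 and Smc4, above it. Of these 10, 5 overlap a gene on the other strand. Between the 2 columns of 1 group, 9 of 160 gene-by-group intervals excluded equality, and the median absolute log2 ratio was 0.11 to 0.18.

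Reads were counted per gene from a stranded library, and the strand setting of the counting is not given in the sources used here. Of 902 pairs of a coding gene with an overlapping noncoding feature on the other strand, the noncoding feature had more counts in 77.6% (exact 95% interval 74.7 to 80.3). Which strand's transcripts the counts represent was not tested for any of the 40 genes, with or without overlap. For 29 of the 40 genes no annotated exon lies on the other strand. Of these 29, 25 fell and none rose, with a median of -0.67, against 12.1% called lower and 11.1% higher among the 11191 such features tested.

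The other 11 genes have exons that overlap those of a gene on the other strand, which adds to the uncertainty of their values. Of the 11, 5 fell (Ccna2, Plk1, Cdc20, Ube2c and Ncapg) and 6 did not pass. The opposite features had more counts than the listed gene in 9 of 11 pairs, and 7 of these features were themselves called lower and none higher. Exosc9, a subunit of the RNA exosome that overlaps Ccna2 by 510 bases, had 1641 and 1808, then 1309 and 1391 counts under the TCR1640 label and 2757 and 2870, then 2806 and 2879 under the SJL/J label. It stood at -1.01 (SE 0.12, edgeR adjusted p = 1.92e-16), while Ccna2, with 587 and 615, then 642 and 758 counts under the TCR1640 label and 694 and 752, then 788 and 780 under the SJL/J label, fell by 0.33 (adjusted p = 0.0285). Without TCR1640 male column 1, SJL/J female column 2 or SJL/J male column 1 the adjusted p of Ccna2 was 0.0736, 0.0624 and 0.0648. The Exosc9 feature had its fewest counts in TCR1640 males, the group with the deepest columns.

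The opposite feature also stood below the listed gene at other pairs. Cdc23, an APC/C subunit gene that overlaps Kif20a by 1271 bases, had 11875 counts in all against 7424, and stood at -0.50 against -0.21 for Kif20a. Rccd1, which overlaps Prc1 by 911 bases, had 15735 counts against 1784 and stood at -0.53 against -0.15. Lcorl, which overlaps Ncapg by 944 bases, stood at -0.83 against -0.40, and Pdzd11, which overlaps Kif4 by 832 bases, at -0.46 against -0.34. For Plk1 and Cdc20 the paired values were close. Plk1 stood at -0.66 and Gm44985, an unclassified feature opposite to it, at -0.54, and Cdc20 at -0.61 with Elovl1 at -0.57. The 4 opposite features that did not pass were Spef1 (0.33, opposite Cdc25b), Oip5 (-0.60, opposite Nusap1), Gm3550 (-0.38, opposite Cdc25c) and Tnnc2 (0.67, opposite Ube2c, with 82 counts in all). Which of a pair's transcripts the counts represent was not tested.

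**Figure D3:**
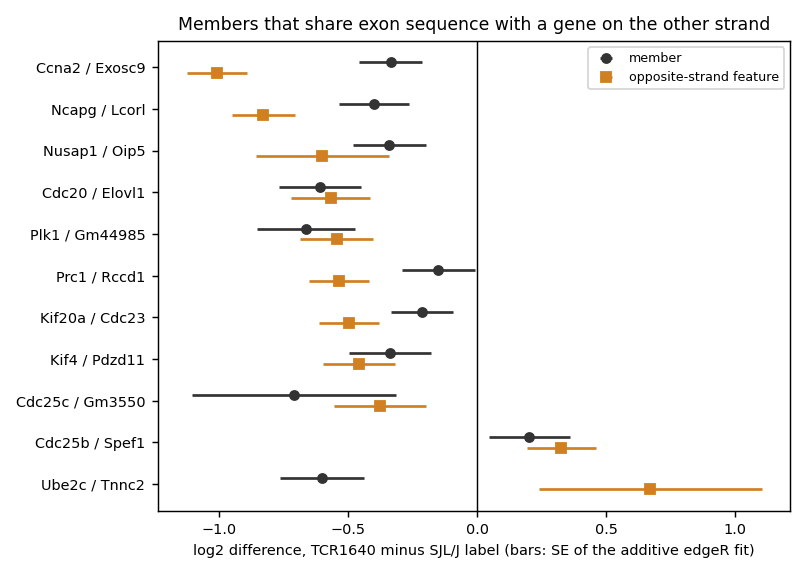
Log2 difference between strain labels, with its SE from the additive edgeR fit, for the 11 genes with exon overlap on the opposite strand (circles) and for the opposite gene (squares). In 7 pairs the opposite feature was called lower, and at Ccna2, Ncapg, Prc1 and Kif20a it lies below the listed gene.

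Between the sexes 1 of the 40 genes passed. The additive model called Ncapg lower in males and none higher, where it called 0.962% and 0.139% of all features. The median log2 difference, male minus female, was 0.09, with 11 of 40 below 0, against 49.6% of all features. By an unadjusted look at columns, all 4 male columns lay above all 4 female columns for Aurka, and below them for Ncapg and Prc1, against 2.42% and 3.73% of all features. Kif4, the only one of the 40 on the X chromosome, stood at 0.02 in the libraries labelled TCR1640 and -0.03 in those labelled SJL/J.

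Within the libraries labelled TCR1640 the median log2 ratio of male over female was 0.03, and within those labelled SJL/J it was 0.12. In TCR1640, 2 of 40 genes, Ndc80 and Ncapg, were lower in the male by at least 1.5-fold with an interval excluding equality, against 5.19% of all features, and none were higher, against 2.65%. In SJL/J 1 of 40, Spc25, was higher by this rule, at 0.61 (counting interval 0.09 to 1.15), against 2.89% of all features, and none were lower, against 3.88%. These counts are near the background. Mki67 stood at 0.09 (counting interval 0.02 to 0.16) in TCR1640 and -0.05 (counting interval -0.11 to 0.01) in SJL/J. Top2a stood at 0.04 (counting interval -0.08 to 0.15) and 0.25 (counting interval 0.15 to 0.35), higher in the SJL/J male beyond counting error. Plk1 was higher in the male in both, at 0.55 (counting interval 0.13 to 0.98) and 0.38 (counting interval 0.03 to 0.72).

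Ncapg, a condensin I subunit, stood at 94.3 and 87, then 41.4 and 39.2 CPM under the TCR1640 label, and at 84.2 and 81.1, then 80.6 and 76.5 CPM under the SJL/J label. The male columns labelled TCR1640 were the lowest, and the female columns of that label the highest. Its ratio of male over female was -1.17 (counting interval -1.35 to -0.99) under the TCR1640 label and -0.07 (counting interval -0.23 to 0.09) under the SJL/J label, and over both it fell by 0.61 (SE 0.14, edgeR adjusted p = 0.00274) in males. Lcorl, on the other strand, had 676 and 703, then 689 and 703 counts under the TCR1640 label and 1132 and 1116, then 1106 and 1174 under the SJL/J label. Its ratios were -0.34 and 0.11, against -1.17 and -0.07 for Ncapg. The sex call of Ncapg was lost without column 2 of TCR1640 females, TCR1640 males, SJL/J females or SJL/J males (adjusted p of 0.132, 0.497, 0.167 and 0.0999) and with DESeq2. Its strain call was lost without any 1 of 6 columns, all but column 1 of either female group, with adjusted p of 0.0583 to 0.206.

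**Figure D4:**
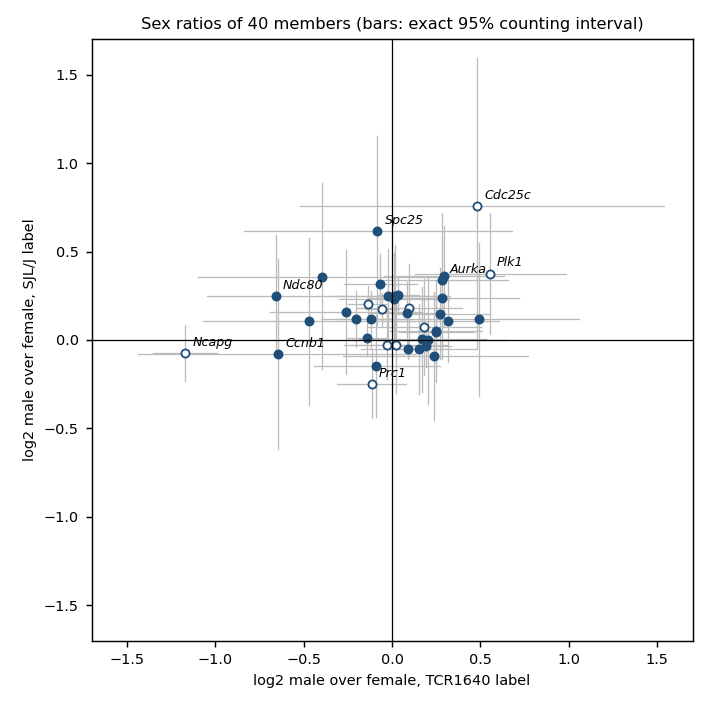
Log2 ratio of male over female in the libraries labelled TCR1640 (horizontal axis) and SJL/J (vertical axis) for the 40 genes, with exact 95% counting intervals; open points mark genes with exon overlap on the opposite strand. Most points lie near 0 on both axes, and Ncapg stands apart at -1.17 and -0.07.

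Other genes of division and of DNA replication fell as well, in lists that were chosen with these results known. Over all features the shares were 13.1% lower and 13.4% higher, as above. Of a further list of 69 G2 and mitosis genes, all tested, 33 fell under the TCR1640 label, none rose and 36 did not pass, with a median of -0.51. Among those without overlap on the other strand, Shcbp1 fell by 1.29, Spc24, the fourth subunit of the Ndc80 complex, by 1.04 and Lmnb1, which encodes lamin B1 of the nuclear envelope, by 0.98. The transcription factor gene Foxm1, a known activator of G2 genes, fell by 0.58 and Mybl2, a MuvB partner, by 0.95. Of 40 genes of DNA replication 22 fell and none rose, with a median of -0.52. They include Rfc3, a clamp loader subunit (fell by 1.06), Tyms, thymidylate synthase (fell by 0.95), and Dut, which removes dUTP (fell by 0.90). Between sexes none of the 69 and none of the 40 passed. Foxm1 and Mybl2 were named after their values were seen.

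Shares for the next lists can be read against the 13.1% lower and 13.4% higher of all features. Of 15 APC/C genes, core subunits present throughout the cycle and the activator gene Fzr1, 2 fell (Anapc5 by 0.57, and Cdc23, which overlaps Kif20a) and 13 did not pass, with a median of -0.24. Of 12 G1 cyclins, kinases and regulators 2 fell and 2 rose, with a median of -0.11. Ccne1, cyclin E1, rose by 0.66, and Rb1 rose, while Cdk4 and Cdk6 fell, the last 3 on counts that overlap the other strand. Of 15 tested genes of quiescence and cell cycle inhibition, 8 rose and 1, Cdkn1a, which overlaps another gene, fell. The transcription factor genes Klf2 and Tcf7, high in naive T cells, rose by 2.14 and 1.99. Among inhibitors, Cdkn1b, which encodes p27, rose by 0.57, while Cdkn1a stood at -0.85. Cdkn2c (-0.39), Cdkn2d (0.15), Rbl1 (0.30), Rbl2 (0.01) and E2f4 (-0.31) of this list did not pass. The antiproliferative genes Btg1 and Tob1 rose by 0.79 and 0.96. Cdkn1b, Btg1 and Tob1 were also named after their values were seen.

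**Figure D5:**
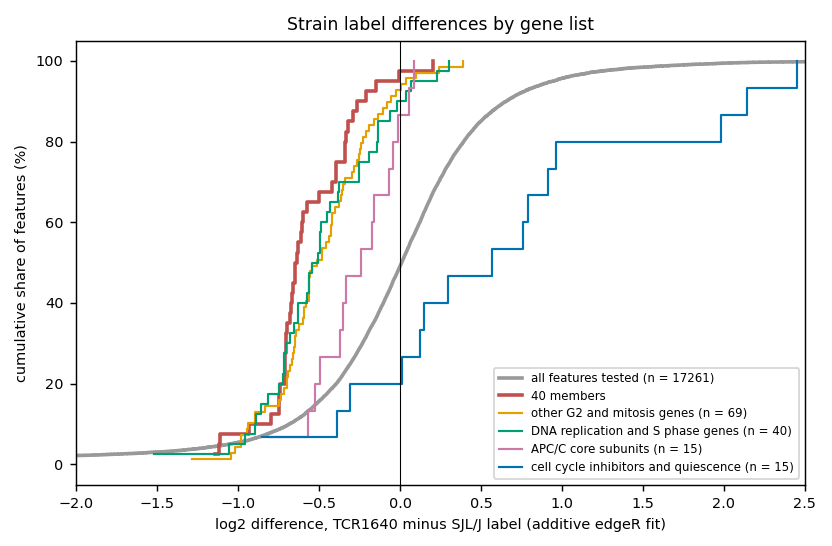
Cumulative share of features (vertical axis, percent) by log2 difference between strain labels (horizontal axis, shown from -2 to 2.5) for all 17261 features tested, the 40 genes and 4 further lists. The curves of the 40 genes, of the other G2 and mitosis genes and of DNA replication lie to the left of all features, with medians of -0.64, -0.51 and -0.52, and quiescence genes lie to the right.

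Many markers of other cells moved with the strain labels too, where 13.1% of all features were lower and 13.4% higher. Summed over 12 T cell markers the level was 2192 and 2360 CPM under the TCR1640 label (female, male). It was 1738 and 1831 CPM under the SJL/J label, and 6 rose and 2 fell. Cd8a and Cd8b1 rose by 2.69 and 2.39, and Cd3d, Cd3e, Cd3g and Cd6 by 0.40 to 0.69. Cd4 and Cd28 stood lower, at -0.52 and -0.40, and Cd247, Lck, Thy1 and Cd5 did not pass. For 10 neutrophil markers it was 10.7 and 7.66 CPM under the TCR1640 label (female, male) and 62 and 161 CPM under the SJL/J label. Of the 9 tested, 8 fell and 1, Ly6g, rose, and S100a8 and Elane were at 0 counts in both TCR1640 samples and Ltf in the female. For 10 mast cell and basophil markers it was 66 and 70.6 CPM under the TCR1640 label (female, male) and 108 and 128 CPM under the SJL/J label, with 8 lower and 1, Kit, higher of 9 tested. For 12 erythroid and platelet markers it was 133 and 124 CPM under the TCR1640 label (female, male) and 258 and 386 CPM under the SJL/J label, with 7 of 11 lower, and Ppbp was at 0 in both TCR1640 samples. The haemoglobin genes Hba-a1, Hba-a2 and Hbb-bs did not pass, at -0.06, -0.34 and -0.31, while Hbb-bt was called lower, at -1.01. Log2 ratios of those that did not pass were 1.04, 0.58 and 0.40 in females and -0.83, -1.11 and -0.93 in males. For 10 B cell markers the summed level was 55.4 and 56.3 CPM under the TCR1640 label (female, male) and 36.1 and 42.2 CPM under the SJL/J label, with 3 higher and 1 lower of 9. For 6 NK cell markers it was 32.4 and 22 CPM under the TCR1640 label (female, male) and 12.6 and 14 CPM under the SJL/J label, with 1 of 2 tested, Klrk1, higher by 1.14. For 10 monocyte and macrophage markers it was 179.5 and 174 CPM under the TCR1640 label (female, male) and 185 and 190.2 CPM under the SJL/J label, and of 6 tested Lyz2 and Ccr2 fell by 4.39 and 0.85. The other tested markers of this list, Itgam, Cd68, Ly6c2 and Csf1r, had estimates above 0 and did not pass. The median of the 6 was 0.27. For 7 dendritic cell markers the summed level was 404 and 349 CPM under the TCR1640 label (female, male) and 361 and 356 CPM under the SJL/J label, with 1 of 3 tested higher. Single genes made up much of some sums. Xcr1, of the dendritic list, had 2796 and 3013 counts under the TCR1640 label and 2732 and 2514 under the SJL/J label. Csf1r, a monocyte marker with overlap on the other strand, had 1008 and 1316, then 997 and 894. Under the TCR1640 label Kit had 380 and 512 counts and Gp1ba, of the platelet markers, 677 and 801. Klrk1, Lyz2, Ccr2, the other tested monocyte markers and the haemoglobin genes were named after their values were seen.

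Their part in the lower mitotic transcripts was not tested. Within the SJL/J label the summed neutrophil level was 62.0 CPM in the female and 161 CPM in the male, while the summed level of the 40 genes was 2589 CPM in the female and 2730 CPM in the male. Within the TCR1640 label the neutrophil level was 10.7 CPM in the female and 7.66 CPM in the male and that of the 40 genes 1905 and 1877 CPM.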

How the data were processed

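RNA from the cultured cells was sequenced from libraries made with a KAPA stranded mRNA kit from 500 ng of RNA, per the labels' protocols. Raw counts, whole numbers for each Ensembl gene, are what the authors deposited. Bowtie2, HTSeq, bcl2fastq 2.17 and mm10 are named in the submitters' processing notes. Neither the strand setting nor the annotation release is given in those sources.

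Symbols, positions and exon overlap came from GENCODE M21 (GRCm38, that is mm10), which lacked 147 of the identifiers. Groups came from the sample titles. The 2 columns of each group were summed, giving 4 samples. edgeR 4.0.16 (R 4.3.3) fitted strain label and sex over all features, with TMM, filterByExpr and the quasi-likelihood F test (two-sided, Benjamini-Hochberg adjusted p under 0.05). Each SE was taken as the log2 change divided by √F. Ratios of 2 samples used summed counts on TMM-scaled sizes, with exact binomial 95% intervals for counting error. The procedure was tested on simulated data. The 40 genes, the lists and the tests were chosen with earlier results of these data known. By rule, column values are given (as CPM, in place of the planned counts) for the first 24 genes without overlap and with mean log2 CPM of at least 3. From the other lists, genes with the largest differences that passed and had no overlap are named, except 1 that is not reported here. Alternatives were other scalings, filters and tools (DESeq2 1.42.0, limma 3.58.1), the 8 columns as separate samples with and without the replicate number as a block, and leaving out each column.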

Additional observations from a re-analysis of the deposited data

Results flagged for a closer look

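For 5 genes the sex difference differed between strain labels when the 8 columns were fitted as separate samples and the difference itself was tested in edgeR. Since the columns of a group count as 1 sample, this test compares libraries and no spread between mice stands behind it. Ncapg differed by -1.10 on the log2 scale (adjusted p = 6.75e-13), Ndc80 by -0.91 (adjusted p = 0.0112), Ccna2 by -0.34 (adjusted p = 0.000385), Kif20a by -0.23 (adjusted p = 0.0099) and Top2a by -0.22 (adjusted p = 0.0488), each with a lower ratio of male over female in the libraries labelled TCR1640. With the replicate number as a block these 5 passed again and Mki67 passed in the other direction, at 0.14 (adjusted p = 0.0274, against 0.0597 without the block). Without the block the test called 4.9% of all features in the direction of the 5. Ncapg, Ccna2 and Kif20a have exons that overlap a gene on the other strand. Ccna2 went opposite ways, at -0.14 (counting interval -0.25 to -0.02) in TCR1640 and 0.20 (counting interval 0.10 to 0.31) in SJL/J.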

How the results depend on the processing

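The 30 genes lower between strain labels became 9 with DESeq2, and the cause was not tested. Under 18 other settings the number was 24 to 36, with none higher. Leaving out 1 column at a time gave 27 to 31, and of the 30 called genes 9 were lower in all 19 settings that could hold them. Every column's replicate number was tried as a block. Correlations of same-numbered columns' deviations were -0.01 to 0.02 over 11625 genes, with Gm43333 again left out, and -0.08 to 0.31 over the 40 genes. The labels give no pairing. With 8 columns the number lower was 36 with and without the replicate block. In 8 columns, block or no block, 28 genes were lower under the TCR1640 label in females and 34 in males. Over both labels 3 were higher in males, with 1 in TCR1640 and 4 in SJL/J, since columns of a sample then count as replicates. Without the block, 17.4% of all features were lower in females and 21.5% in males. Those higher in males were 6.92% of features over both labels, 6.87% in TCR1640 and 4.69% in SJL/J. The 1 gene lower in males, Ncapg, became 0 with DESeq2 and with the number 1 columns alone, and 0 to 1 when leaving out a column. The fit on features without overlap does not hold Ncapg and so says nothing about its call. At 2-fold, where shares of all features were not taken, the numbers were 1 lower in females, 4 in males, 1 lower in the TCR1640 male and 0 higher in the SJL/J male. Of the pair lower in the TCR1640 male, 1 was left among features or genes without overlap, settings that cannot hold Ncapg. When leaving out a column the number was 1 to 2. Those higher there were then 0 to 1, and those higher in the SJL/J male 1 to 2, or 0 when fitted without overlapped features. TMM, RLE and upper-quartile scaling gave medians over all features of 0.01, 0.00 and -0.01. Depth limits genes such as Ccnb1, Ttk, Spc25, Ect2 and Cdc25c, with 96 to 255 counts in all.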
